A study of Mus musculus with 8 samples.

Results

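The CCN family are secreted matricellular proteins, that is, proteins of the extracellular space that act on cells rather than build the matrix. The mouse genes Ccn1, Ccn2, Ccn3, Ccn4 and Ccn5 of this family were followed through RNA-seq of mast cells after targeting of Mettl3. They were 5 of the 56748 gene IDs counted, and 2 of them, Ccn3 and Ccn5, had enough counts to be among the 14942 genes tested. Ccn3, also named Nov, was selected on its lower level in the Mettl3-targeted cells of these same libraries, and its relatives were added to it by family. The change of the members between the groups is therefore given as a description, with no test.

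Bone marrow-derived mast cells (BMMCs) were grown in IL-3 from the bone marrow of C57BL/6 mice aged 6 to 8 weeks, and the series names 4 mice as the source of its 8 libraries. In the Mettl3-RNP group (genotype label Mettl3 KO), cells were transfected with ribonucleoproteins (RNPs) of the Cas9 nuclease and guide RNAs that cut Mettl3. In the Pulsed group (genotype label Mettl3 WT), cells were mock transfected, so that the control lacked any Cas9 RNP. Both groups were resting when RNA was extracted, and each held 4 libraries, numbered 1 to 4. Loss of the Mettl3 protein had been checked by staining before sequencing, and the targeted population still held some cells that were not targeted.

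CCN proteins share a chain of modules, an insulin-like growth factor binding-like module, a von Willebrand C module, a thrombospondin module and a cysteine knot, the last of which Ccn5 lacks. They act through integrins and heparan sulphate proteoglycans, and Ccn3 has also been described to bind Notch1. Ccn1 and Ccn2 are immediate early genes and classical targets of the Hippo effector YAP and of serum response factor, and Ccn2 is induced by TGF-beta. Mettl3 is the catalytic subunit of the complex that methylates adenosine of mRNA at the N6 position (m6A), and GGACT is the sequence it favours.

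Ccn3 (ENSMUSG00000037362) lies on chromosome 15 of GRCm39 at chr15:54609012-54620154, on the plus strand. Its canonical transcript has 5 exons and 5674 bases, of which 1062 are coding, and no exon of another annotated gene overlaps it. A search of the transcript strand found 3 matches to GGACT, all of them in the 3′ UTR part of exon 5 and none in the coding sequence or the 5′ UTR. They are printed with 12 bases on either side because they are all the places in the Ccn3 transcript that hold the favoured sequence of the targeted enzyme. The capitals mark GGACT, and the sequences were read 5′ to 3′ on the plus strand of GRCm39.
Ccn3 match 1 (chr15:54616690-54616718): aaaattaaacagGGACTctttcatagtta
Ccn3 match 2 (chr15:54618064-54618092): ggaaagcaaattGGACTtctaggtgttga
Ccn3 match 3 (chr15:54619827-54619855): gaattggcttgaGGACTtgctgctattat
The 3 matches correspond to 0.529 per kb of transcript, against a median of 1.04 per kb over the 12056 tested protein-coding genes, and 18.2% of these genes had fewer per kb. Among 1226 tested transcripts within 10% of the length of Ccn3, 99.5% held at least 1 GGACT, 90.9% held at least 3, and the median was 6. The other family transcripts held 4 matches (Ccn1, 1.97 per kb), 1 match (Ccn2, 0.366 per kb), 4 matches (Ccn4, 0.783 per kb) and 4 matches (Ccn5, 2.25 per kb). A match is a run of letters and was not tested for methylation.

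Total counts were 32643260 to 45324826 per library, and 21871 to 28483 genes had at least 1 count, most of them in Mettl3-RNP 2. Mettl3 itself had 8.88 ± 3.04 CPM (counts per 1000000 counts of the library; SD, n = 4) in Mettl3-RNP and 22.0 ± 7.28 in Pulsed, and 40.9% ± 5.81 of the Pulsed level was left over the 4 pairs of libraries with the same number (log2 fold change −1.30, SE 0.109, adjusted p = 0.00543, edgeR quasi-likelihood test with the replicate number as a block). An exon of Tox4 overlaps Mettl3 on the other strand, and the 2 groups overlapped in their Mettl3 levels, since Pulsed 3, at 11.1 CPM, lay below Mettl3-RNP 1, at 12.3 CPM. The mast cell label was set against its markers, which had a summed level of 46036 to 62462 CPM in Mettl3-RNP and 49791 to 68170 CPM in Pulsed over 12 genes, among them Kit and Fcer1a. Cpa3 was the largest part of the sum, at a mean of 23241 CPM in Mettl3-RNP and 30385 in Pulsed. Not every marker was abundant, since Mcpt4 was at 3.23 and 2.91 CPM. Tpsab1 reached at most 0.210 CPM in any library and was not tested. Neutrophil markers summed to at most 0.372 CPM, with S100a8, S100a9, Elane and Camp at 0 in all 8 libraries.

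Ccn3 was the most highly expressed member in these mast cells. In Pulsed it had 2290, 2256, 2870 and 702 counts in replicates 1 to 4, which is 64.3, 58.8, 71.3 and 19.2 CPM. In Mettl3-RNP it had 482, 477, 477 and 227 counts, which is 12.96, 11.1, 15.9 and 6.46 CPM. All 4 Mettl3-RNP libraries lay below all 4 Pulsed libraries, and replicate 4 was the lowest of its group on both sides. The gap was narrow across pairs, since the lowest Pulsed library, replicate 4, stood 1.21-fold above the highest Mettl3-RNP library, replicate 3. Of all tested genes, 1.20% separated the groups in this way and 16.0% were lower in 4 of 4 pairs.

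The mean level of Ccn3 was 53.4 ± 23.4 CPM in Pulsed and 11.6 ± 3.97 CPM in Mettl3-RNP (SD, n = 4). Pair by pair, the log2 difference was −2.31, −2.40, −2.16 and −1.56, with a mean of −2.11 ± 0.375 (SD of 4 pairs), or 4.31-fold lower. The share of the Pulsed level that was left was 20.1%, 18.9%, 22.4% and 33.7% in pairs 1 to 4, which is 23.8% ± 6.74 on average. Pairs 1 to 3 were close to each other and pair 4, which started from the lowest Pulsed level, kept the most. The fit over all genes gave a log2 fold change of −2.13 (SE 0.137). It uses the same counts and pairs, so it is not a second measurement, and its SE is given as a description. In such bulk libraries, fewer cells that express Ccn3 and less Ccn3 RNA per cell cannot be told apart.

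**Figure D1:**
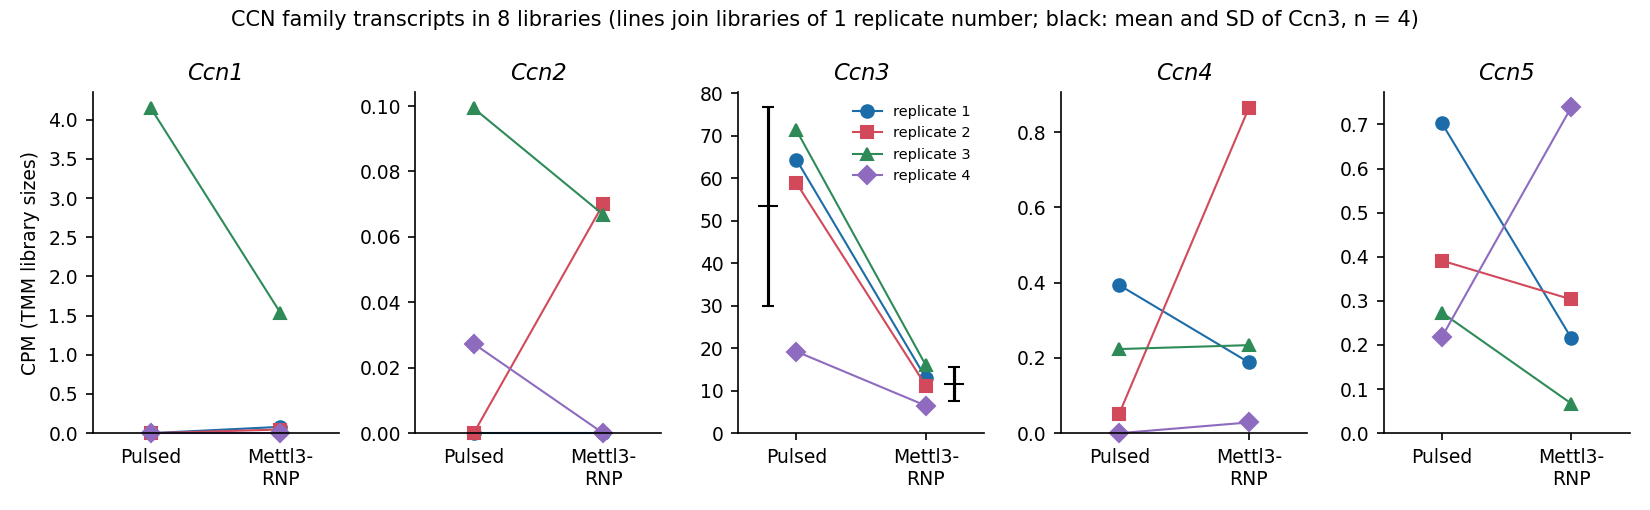
Level in CPM (vertical axes, 1 scale per gene, all from 0) of Ccn1 to Ccn5 in the Pulsed and Mettl3-RNP libraries, with lines joining libraries of the same replicate number and black bars giving the mean and SD of Ccn3 (n = 4). Ccn3 is lower in all 4 pairs, at 19.2 to 71.3 CPM in Pulsed and 6.46 to 15.9 CPM in Mettl3-RNP, whereas the other members reach at most 4.15 CPM in any library.

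Per kb of exon, which allows levels of different genes to be compared, Ccn3 stood at 9.41 ± 4.12 CPM per kb in Pulsed (SD, n = 4), above 76.1% of the tested genes. In Mettl3-RNP it stood at 2.05 ± 0.699 CPM per kb, above 43.7% of them. It had the highest level per kb of the 5 members in each of the 8 libraries. The mean levels per kb in Pulsed of the others were 0.510 for Ccn1, 0.183 for Ccn5, 0.0275 for Ccn4 and 0.00994 for Ccn2. Ccn5 was above Ccn4 in each Pulsed library, whereas Ccn1 took its place in this order from replicate 3 alone and Ccn4 and Ccn2 overlapped.

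Ccn1, also named Cyr61, the immediate early member (chr3:145352720-145355738, minus strand), was seen almost solely in replicate 3. Its counts were 0, 0, 167 and 0 in Pulsed and 3, 2, 46 and 0 in Mettl3-RNP. In pair 3 this is 4.15 CPM against 1.54 CPM, so that 37.1% of the Pulsed level was left (log2 difference −1.40), a value from 1 pair with no replicate. A library with 0 counts allows up to 3 counts, which is 0.0700 to 0.1002 CPM at these depths and covers counting error only. The other 3 pairs hold too few counts for a fold. The exons of Gm17501 overlap Ccn1 on the other strand, and the strand setting of the counting is not given in the sources used here.

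Replicate 3 was also the pair with the most immediate early RNA in general. The summed level of 12 immediate early genes (among them Fos, Egr1 and Ier2), a list chosen after the values of Ccn1 had been seen, was 3812, 4283, 21987 and 602 CPM in Pulsed replicates 1 to 4. In Mettl3-RNP it was 3253, 6651, 25463 and 770 CPM. Replicate 3 was highest and replicate 4 lowest on both sides, as for Ccn3, while replicates 1 and 2 did not keep the order they had for Ccn3. The part of this difference between replicates in the levels of Ccn1 and Ccn3 was not tested.

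Ccn2, also named Ctgf, the fibrosis-associated member (chr10:24471333-24474900, plus strand), had 0, 0, 4 and 1 counts in Pulsed and 0, 3, 2 and 0 in Mettl3-RNP. It was at or near the limit of detection in both groups, and no fold is given. Ccn4, also named Wisp1 for its induction by Wnt1 (chr15:66763060-66795050, plus strand), had 14, 2, 9 and 0 counts in Pulsed and 7, 37, 7 and 1 in Mettl3-RNP. Its 37 counts fell in Mettl3-RNP 2, the library with the most genes detected, and the groups overlapped. Exons of Gm15270 and Gm46514 overlap Ccn2 and Ccn4, respectively, on the other strand.

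Ccn5, also named Wisp2 (chr2:163662753-163675066, plus strand), was low, with at least 2 counts in all libraries. Its counts were 25, 15, 11 and 8 in Pulsed and 8, 13, 2 and 26 in Mettl3-RNP. It was lower in pairs 1 to 3 and higher in pair 4, with log2 differences of −1.49, −0.32, −1.44 and 1.54. The value of pair 3 rests on the 2 counts in Mettl3-RNP 3, or 0.0668 CPM, where 3 counts are 0.1002 CPM. The mean was 0.396 ± 0.216 CPM in Pulsed and 0.331 ± 0.289 CPM in Mettl3-RNP, and the mean difference of −0.43 ± 1.42 (SD of 4 pairs) was smaller than the spread between pairs. This rests on replicate 4, without which it was −1.08 ± 0.663 (SD of 3 pairs), while without replicate 1 it was −0.07. Ccn6, the most distant relative and not among the members, had at most 4 counts in any library.

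**Figure D2:**
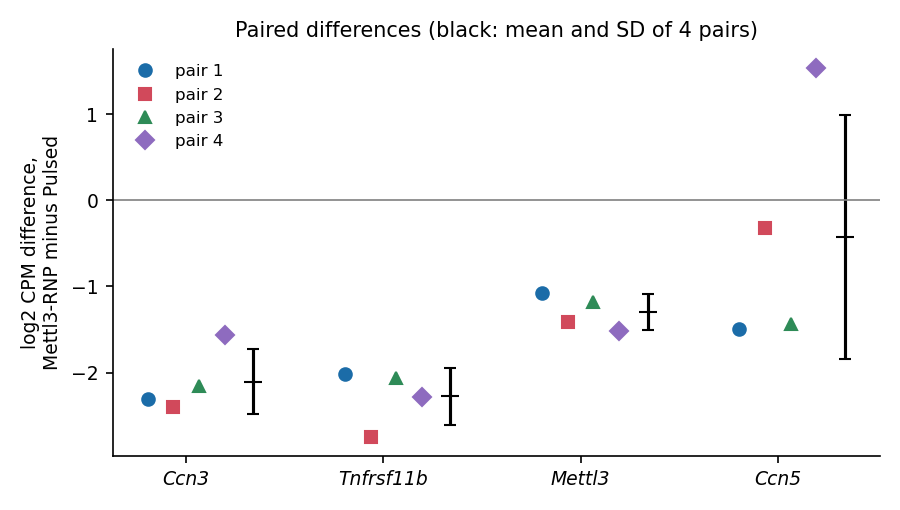
Difference in log2 CPM, Mettl3-RNP minus Pulsed, in each of the 4 pairs (coloured points) with the mean and SD (black) for Ccn3, its neighbour Tnfrsf11b, the targeted gene Mettl3 and Ccn5. Ccn3 lies between −2.40 and −1.56 in all 4 pairs, while Ccn5 spreads from −1.49 to 1.54.

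Since the position of Ccn3 played no part in its selection, the genes around it were compared in the same fit. Within 1 Mb of either end lie 28 annotated genes, 12 of them protein-coding, and 9 genes were tested. Of the 9, only Tnfrsf11b was lower at an adjusted p of 0.05 or less, against 1.39% of all tested genes, and none was higher, against 2.35%. The median log2 fold change of the 9 was −0.14. That Tnfrsf11b was among the strongly lowered genes was known when the neighbours of Ccn3 were chosen for description.

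Tnfrsf11b encodes osteoprotegerin, the secreted decoy receptor of the bone-resorption factor RANKL. It lies at chr15:54114015-54142075 on the minus strand, 466.9 kb from Ccn3. In Pulsed it had 196, 271, 63 and 134 counts, and in Mettl3-RNP 49, 43, 10 and 25. All 4 Mettl3-RNP libraries were below all 4 Pulsed libraries, and replicate 3, where Ccn3 was highest, had the least Tnfrsf11b on both sides. Its level fell from 4.45 ± 2.37 to 0.841 ± 0.419 CPM (SD, n = 4), with log2 differences of −2.02, −2.75, −2.06 and −2.28 in the 4 pairs (log2 fold change −2.38, SE 0.214, adjusted p = 0.00543, edgeR). Its transcript held 2 matches to GGACT, or 0.664 per kb.

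None of the genes between Tnfrsf11b and Ccn3 had enough counts to be tested, and the tested genes beyond Ccn3 did not pass. The protein-coding genes Colec10 and Mal2, which lie between both, and Enpp2 and Samd12 were at most 0.793 CPM in any library and were not tested. Taf2, a subunit of the transcription factor TFIID and the nearest tested gene at 258.4 kb, had 82.8 ± 5.53 CPM in Pulsed and 78.6 ± 8.46 in Mettl3-RNP (log2 fold change −0.08, SE 0.0665). The exons of Dscc1, Deptor, Col14a1, Mrpl13, Mtbp and Gm9920 overlap those of a gene on the other strand. Further on, Dscc1 (−0.17), Deptor (−0.17), Col14a1 (0.69), Mrpl13 (−0.14), Mtbp (−0.04) and Sntb1 (−0.58, lower in 4 of 4 pairs) had these log2 fold changes. The ninth tested gene, the long non-coding RNA Gm9920, had a log2 fold change of 1.01, and the adjusted p of these 8 genes ranged from 0.152 to 0.858 (edgeR). Without replicate 4 the log2 fold change of Col14a1 was −0.05, and without replicate 1 that of Mtbp was 0.0072.

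**Figure D3:**
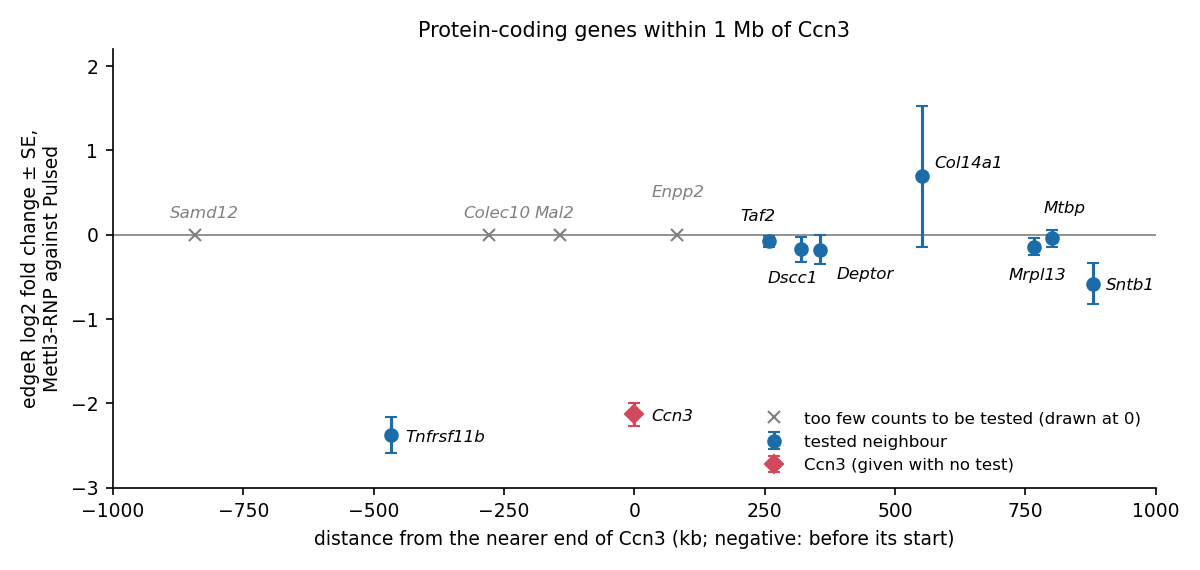
edgeR log2 fold change with its SE (vertical axis) of the protein-coding genes within 1 Mb of Ccn3 against their distance from its nearer end in kb (horizontal axis). Ccn3 at −2.13 and Tnfrsf11b at −2.38 stand well below the 7 other tested genes, which lie between −0.58 and 0.69, and crosses mark the 4 genes with too few counts.

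Genes that act around CCN proteins were read in 6 lists from the same fit. The lists held 101 genes, of which 63 were tested, 1 was higher and 2 were lower at an adjusted p of 0.05 or less, beside 2.35% and 1.39% of all tested genes. With DESeq2, 6 of the 63 were higher and 2 lower, beside 5.94% and 3.76% of all 14942 genes. In edgeR with every gene of at least 1 count, 6 of 96 were higher and 3 lower, beside 1.90% and 1.05% of 33650 genes. Over all genes, higher calls outnumbered lower calls in each of these 3 fits. In the lists this held with DESeq2 and with every gene of at least 1 count, but not in the main fit. The median log2 fold change of the 63 was 0.18, beside −0.0013 over all tested genes.

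Among the receptors and co-receptors of CCN proteins, 11 of 16 were tested and 1 was lower. Igf2r, the mannose 6-phosphate receptor that clears IGF2, had 28.7, 15.9, 18.5 and 6.95 CPM in Pulsed and 7.12, 5.16, 8.02 and 5.66 in Mettl3-RNP. It was lower in 4 of 4 pairs, with the smallest step in replicate 4, where the Pulsed level was lowest (log2 fold change −1.31, SE 0.249, adjusted p = 0.0340, edgeR). The call was lost without replicate 1, 2 or 3, at adjusted p = 0.0585, 0.142 and 0.0645 (edgeR), with log2 fold changes of −1.09, −1.20 and −1.35. The median of the 11 was −0.01.

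The αvβ3 integrin, a receptor of several CCN proteins, was followed through both of its subunits, which are named here after their values had been seen. Itgb3 (β3) had 38.9, 41.5, 12.8 and 8.78 CPM in Pulsed and 9.03, 24.4, 2.07 and 15.1 in Mettl3-RNP. It was lower in pairs 1 to 3 and higher in pair 4, and did not pass the test over all 4 pairs (log2 fold change −1.12, SE 0.485, adjusted p = 0.225, edgeR), although it did when every gene with at least 1 count was kept (adjusted p = 7.69e-11, edgeR). Without replicate 4 its log2 fold change was −1.74 and it passed, at adjusted p = 0.00253 (edgeR). Itgav (αv) was 48.8 CPM in Pulsed and 58.2 in Mettl3-RNP, higher in 4 of 4 pairs as were 15.7% of all tested genes (log2 fold change 0.26, SE 0.0837, adjusted p = 0.122, edgeR).

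In the Notch pathway, 9 of 16 genes were tested, 1 was lower and none was higher. Maml2, a coactivator of Notch transcription, had 22.6, 9.10, 9.81 and 4.32 CPM in Pulsed and 14.2, 3.94, 4.68 and 2.76 in Mettl3-RNP, with replicate 1 highest in both groups. All 4 pairs were lower in Mettl3-RNP (log2 fold change −0.90, SE 0.136, adjusted p = 0.0200, edgeR), and without replicate 2 it missed the threshold, at adjusted p = 0.0971 (edgeR). Notch1, the receptor that Ccn3 has been described to bind, had 16.7, 17.7, 30.5 and 11.8 CPM in Pulsed and 20.2, 44.7, 46.8 and 17.5 in Mettl3-RNP. It was higher in 4 of 4 pairs and just missed the threshold (log2 fold change 0.70, SE 0.160, adjusted p = 0.0557, edgeR), and it passed without replicate 1 or 4, at adjusted p = 0.0446 and 0.0292 (edgeR). Without replicate 2 it was 0.48, at adjusted p = 0.144 (edgeR). Notch1 was named after its value had been seen, and the median of the 9 was 0.32.

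In TGF-beta signalling, 12 of 14 genes were tested, 1 was higher and the median was 0.24. Ski, a corepressor of the Smad proteins, had 148, 140, 141 and 114 CPM in Pulsed and 199, 201, 163 and 169 in Mettl3-RNP. All Mettl3-RNP libraries were above all Pulsed libraries, as for 2.03% of all tested genes (log2 fold change 0.43, SE 0.0793, adjusted p = 0.0324, edgeR). The call was lost without replicate 1, 2 or 4, at adjusted p = 0.106, 0.147 and 0.153 (edgeR), with log2 fold changes of 0.397, 0.395 and 0.397.

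The Hippo-YAP and serum response factor regulators, the upstream control of Ccn1 and Ccn2, had 16 of 18 genes tested and none past the threshold, with a median of 0.17. Of the 16, 12 had a log2 fold change above 0. The most abundant were the kinase Stk4 (log2 fold change 0.18, SE 0.0730) and its partner Mob1a (−0.12, SE 0.0804). Wwtr1 (0.93, SE 0.271, adjusted p = 0.0953) and Lats2 (0.46, SE 0.141, adjusted p = 0.107) did not pass (edgeR). Both were higher in 4 of 4 pairs, as were 15.7% of all tested genes. Wwtr1 passed with every gene of at least 1 count, and Lats2 with DESeq2. Both are named here after their values had been seen. Of 20 further YAP targets, 9 were tested and none passed, with a median of 0.08 and a log2 fold change of 0.03 for Asap1 and 0.02 for Dock5. Asap1 was −0.11 without replicate 1, and Dock5 lay between −0.04 and −0.02 without replicate 1, 2 or 3. Of 21 other matricellular and IGF-binding proteins, 8 were tested and none passed, with a median of 0.11. The most abundant, Igfbp5, an IGF-binding protein that shares the first module of the CCN proteins, was 550 CPM in Pulsed and 494 in Mettl3-RNP (log2 fold change −0.15, SE 0.114), and Igfbp4 had a log2 fold change of −0.11 (SE 0.0928).

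**Figure D4:**
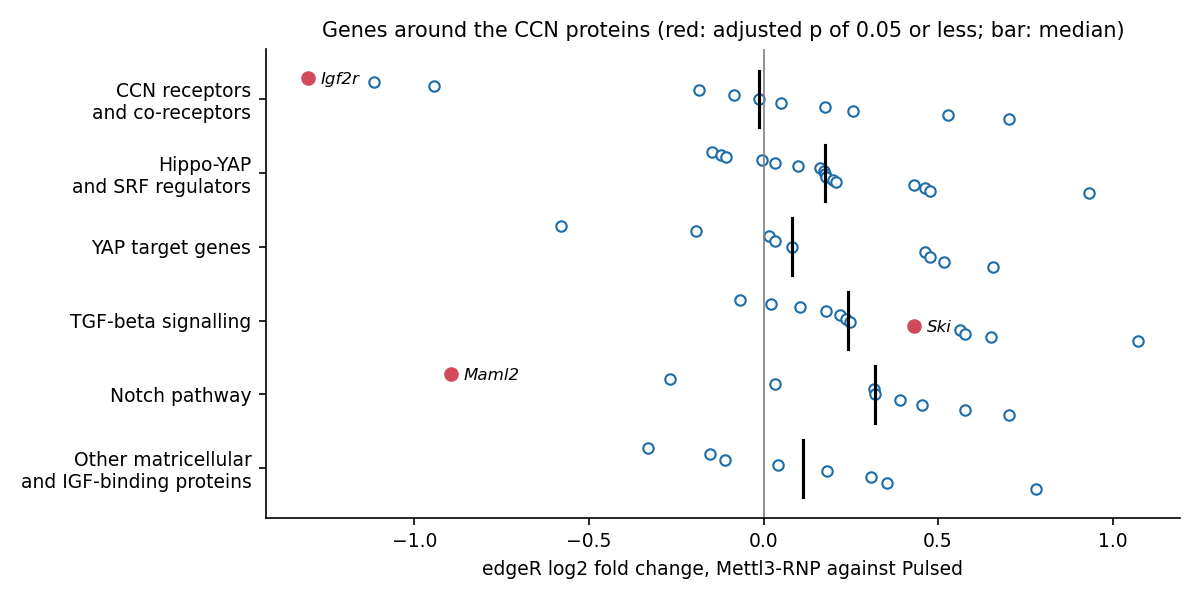
edgeR log2 fold change, Mettl3-RNP against Pulsed, of the tested genes in the 6 lists around the CCN proteins (1 point per gene, bar at the median of each list). Red points are the genes at an adjusted p of 0.05 or less, Igf2r and Maml2 to the left and Ski to the right, and the medians run from −0.01 to 0.32.

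The genes whose levels followed those of Ccn3 most closely were looked for over the 8 libraries, among the 11988 genes that averaged 1 CPM or more. The likeness was Pearson's r of log2 CPM, given as a description because all 8 libraries enter both the choice and the value and a gene that differs between the groups shares that part with Ccn3. In all, 37 genes had an r above 0.9. The highest was Cdk14 (r = 0.972, Spearman's rho 0.786), a cyclin-dependent kinase, at 19.97, 17.9, 22.1 and 7.69 CPM in Pulsed and 8.52, 8.31, 8.15 and 5.69 in Mettl3-RNP. Like Ccn3, Cdk14 was lowest in replicate 4 of both groups and its order in Pulsed was the same.

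Next came Sacm1l, a phosphoinositide phosphatase (r = 0.964), Nrgn, a calmodulin-binding protein (r = 0.957), Macrod1, an ADP-ribose hydrolase (r = 0.954), and Calca, the gene of calcitonin and CGRP (r = 0.952). They differed in the size of the change. Nrgn was lower by a mean log2 difference of −2.10 ± 0.578 (SD of 4 pairs), close to that of Ccn3, and its mean level was 232 CPM in Pulsed and 53.8 CPM in Mettl3-RNP. Calca was at −1.05 ± 0.292, Cdk14 at −1.05 ± 0.435, Macrod1 at −0.68 ± 0.191 and Sacm1l at only −0.17 ± 0.0446. The opposite pattern was most marked for Sgcb, a sarcoglycan (r = −0.984, mean log2 difference 0.16 ± 0.0349), the transcription factor Sox13 (r = −0.975, 0.47 ± 0.179) and Nat8l, the enzyme that makes N-acetylaspartate (r = −0.966, 1.26 ± 0.331). The exons of Cdk14, Sacm1l, Nrgn, Macrod1 and Sox13 overlap those of a gene on the other strand.

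**Figure D5:**
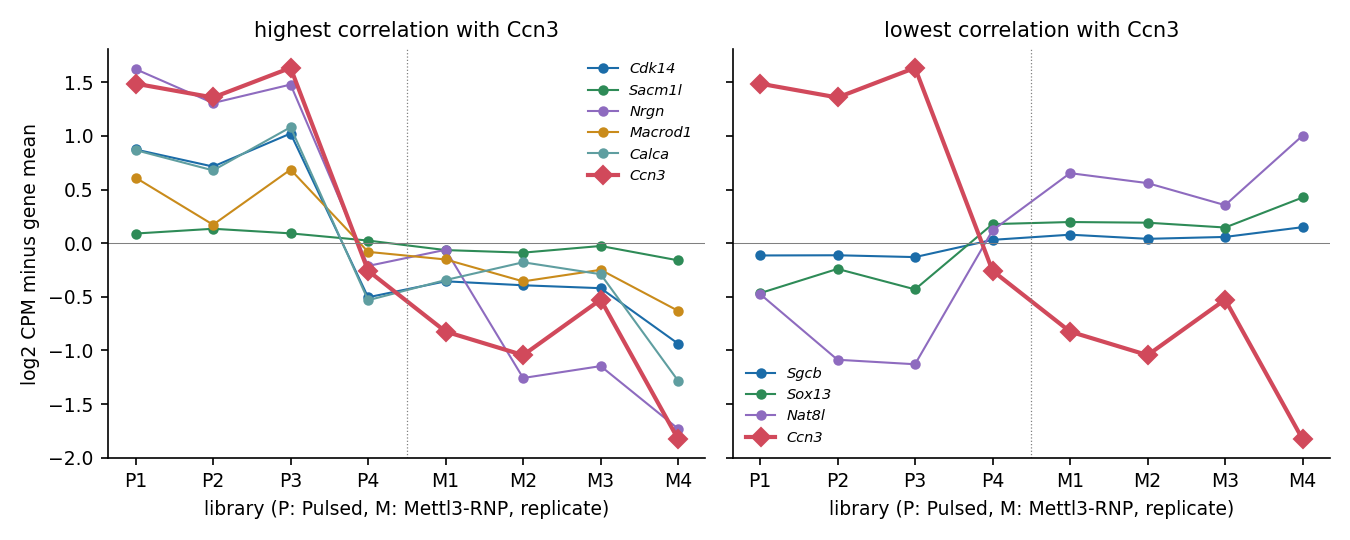
Level (log2 CPM minus the mean of each gene) of Ccn3 and of the 5 genes with the highest (left) and the 3 with the lowest (right) correlation with it, in the 4 Pulsed and 4 Mettl3-RNP libraries. Ccn3 and Nrgn cover the widest range, and Pulsed 4 lies nearest to the Mettl3-RNP libraries for Ccn3 and for most of the genes.

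Tnfrsf11b, the neighbour that fell to a like extent, had an r of 0.679 with Ccn3 over the 8 libraries, but −0.243 within the 4 Mettl3-RNP and −0.065 within the 4 Pulsed libraries. For Cdk14 the values within the groups were 0.902 and 0.999, but Cdk14 was chosen for its r over these same libraries and is no measure for Tnfrsf11b. In Mettl3-RNP, Cdk14 shared with Ccn3 the lowest place of replicate 4 and not the order of the others. Each value within a group rests on 4 libraries. By their own levels, Ccn3 and Tnfrsf11b did not share the order of the replicates in either group, although both were lower in all 4 pairs.

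Markers of other cells were read beside Ccn3. Stromal and fibroblast markers, which stand for cells known for CCN expression, summed to 4.04 to 8.94 CPM in Mettl3-RNP and 4.20 to 5.46 CPM in Pulsed over 10 genes, with Dcn at 0 in all libraries. None of the 4 tested among them passed the test. Of 9 megakaryocyte and platelet markers, 5 were tested, and Vwf and Gp5 were higher, beside 2.35% of all tested genes. The summed level was 2785 to 3000 CPM in Mettl3-RNP and 2303 to 2433 CPM in Pulsed, most of it Itga2b. The defining genes Pf4 and Ppbp were at most 0.568 and 0.0334 CPM in any library.

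Basophil markers summed to 2090 to 2695 CPM in Mettl3-RNP and 2483 to 3579 CPM in Pulsed, with Il18rap and Ifitm1 lower among the 7 tested, beside 1.39% of all tested genes. Ifitm1 made up most of the sum, at 1387 CPM in Mettl3-RNP and 2095 in Pulsed, while Cd200r3 (687 and 572 CPM) and Fcgr3 (303 and 270 CPM) lay the other way and did not pass. Macrophage markers summed to 7.85 to 35.8 CPM in Mettl3-RNP and 9.55 to 15.7 CPM in Pulsed, with 4 of 8 tested. Adgre1 was lower, at 1.17 CPM in Mettl3-RNP and 2.53 in Pulsed, whereas Cd68, the largest part of the sum in Mettl3-RNP, was at 16.7 and 4.49 CPM and did not pass (log2 fold change 1.63, SE 0.569, adjusted p = 0.142, edgeR). Among the mast cell markers, Cpa3, a granule protease, was lower (log2 fold change −0.37, SE 0.0699, adjusted p = 0.0328, edgeR). Over the 8 libraries, Pearson's r of the summed markers with Ccn3 was −0.874 for megakaryocyte and platelet, 0.679 for basophil and −0.447 for macrophage markers. For stromal, neutrophil and mast cell markers it was −0.240, 0.203 and −0.0024. These values are a description, since a sum that differs between the groups shares that part with Ccn3. The part of these shifts in the levels of Ccn3 was not tested.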

How the data were processed

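RNA-seq libraries (Tecan Revelo mRNA kit) of 4 Mettl3-RNP and 4 Pulsed BMMC samples were used. The authors aligned paired-end reads to GRCm39 with HISAT2 2.2.1, after FastQC 0.11.9, and deposited whole-number counts per Ensembl gene from featureCounts 2.0.1, with no normalization. Strand and multimapping settings are not given in the sources used here, and the batch correction in the study's methods is not visible in these counts. GENCODE mouse release M39 (GRCm39) named 56017 of 56748 gene IDs (98.7%), and the share of counts on unnamed IDs reached 0.113%. The GGACT sequences came from its canonical transcripts, placed on the genome by their exons.

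Genes were kept by filterByExpr (about 10 counts in 4 libraries) and tested with the quasi-likelihood test of edgeR 4.0.16 in R 4.3.3, with TMM library sizes, the replicate number as a block and Benjamini-Hochberg adjustment over all 14942 tested genes. A gene was called at an adjusted p of 0.05 or less. CPM, the count per 1000000 counts, used TMM library sizes and log2 CPM a prior count of 2. SEs came from the test statistic. The script was tested on simulated data. Alternatives were DESeq2 1.42.0, other scalings, filters, prior counts and windows, no block, and each replicate left out.

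The block follows the 4 mice in the series text. The link of number to mouse is inferred, and deviations from the group mean correlated at 0.825, 0.488, 0.881 and 0.766 between same-numbered libraries over 11989 genes, at most 0.188 between others. With the block, the p-values measure the spread of the differences within these inferred pairs, and the spread between replicate numbers is taken out. Without the block Mettl3 itself had an adjusted p of 0.744 (edgeR). Counting limits cover counting error only, since the sources used here name no molecular identifiers for these RNA-seq libraries.

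The members and lists were chosen with earlier results of these data known. Named genes were the family and Ccn6, list genes that passed or else the 2 with the highest mean CPM, every tested protein-coding gene within 1 Mb of Ccn3, the 5 most and 3 least correlated genes, and Mettl3. Gm9920, Notch1, Itgav and Itgb3 were added with their values in view. So were Wwtr1 and Lats2, which were not part of the groups examined for outlying libraries.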

Additional observations from a re-analysis of the deposited data

Results flagged for a closer look

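Among 76 groups of 4 libraries examined over the named genes, 10 held a library far from the other 3 by Dixon's criterion, and chance flags about 1 in 20 groups, or 3.8 here. Ccn1 stood apart in replicate 3 on both sides, at 1.54 CPM in Mettl3-RNP 3 and 4.15 CPM in Pulsed 3, where the other libraries held at most 3 counts. Pulsed 3 also stood apart for Asap1, high at 318 CPM, and for Mettl3, low at 11.1 CPM. Pulsed 4 stood apart for Mob1a, high at 360 CPM, and for Sgcb, high at 69.4 CPM. Mettl3-RNP 1 stood apart for Dock5, low at 27.0 CPM, and for Maml2, high at 14.2 CPM. Mettl3-RNP 4 stood apart for Cdk14, low at 5.69 CPM, and for Sox13, high at 6.20 CPM. Cdk14, Sgcb and Sox13 were chosen for their correlation with Ccn3, which was itself lowest in replicate 4. The levels of Ccn3 did not stand apart in either group by this criterion.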

How the results depend on the processing

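The paired log2 difference of Ccn3 stayed between −2.29 (without replicate 4) and −2.01 (without replicate 2) under other scalings, prior counts and each replicate left out. Without pairing the mean is the same by construction, and the SD was 1.04 in place of 0.375. With each replicate left out the mean of Ccn5 ran from −1.08 to −0.07. The mean over pairs of Ccn1 and Ccn4 rests on few counts and depends on the prior count, at 0.88 with a prior of 0.5 and −0.06 with a prior of 5 for Ccn1, and is not read. Without the replicate block, the count of genes past the threshold was 0 in place of 559 (579 at an unadjusted p under 0.05, edgeR), 0 in place of 3 for the pathway lists and 0 in place of 1 for the neighbours of Ccn3, where Tnfrsf11b had an adjusted p of 0.627 (edgeR). The count over all genes was 993 with every gene of at least 1 count tested (638 higher and 355 lower of 33650), 959 with at least 10 counts in every library, 1449 with DESeq2 (887 higher and 562 lower of 14942), and 26 to 383 with each replicate left out, lowest without replicate 2. For the pathway lists it was 9 with every gene of at least 1 count (6 higher and 3 lower of 96), 8 with DESeq2 (6 higher and 2 lower of 63) and 0 to 5 with each replicate left out, 0 without replicate 2 and 5 without replicate 4. Tnfrsf11b alone passed among the neighbours under each of the other settings, windows of 500000 and 2000000 bases included. With each replicate left out, the log2 fold change turned its sign for Asap1 (range −0.11 to 0.082), Dock5 (−0.041 to 0.13), Col14a1 (−0.052 to 1.36) and Mtbp (−0.093 to 0.0072), none of them past the threshold, and that of Dock5 was −0.00041 without the block. Notch1 passed with DESeq2 size factors (adjusted p = 0.0453, edgeR), with every gene of at least 1 count (1.84e-05), with at least 10 counts in every library (0.0371) and with the DESeq2 test (0.000509), and missed most widely without the block (0.999) and without replicate 2 (0.144). The causes were not tested. At these depths 3 counts correspond to 0.0700 to 0.1002 CPM, which limits what can be said of Ccn1, Ccn2 and Ccn4, and of Ccn5 in pair 3.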
